A study of Homo sapiens with 12 samples.

Results

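The HOX cluster genes are the 39 protein-coding genes of the deposited expression table whose symbols are HOXA, HOXB, HOXC or HOXD followed by a number, out of 60664 gene identifiers in all. Members were taken by symbol, matched through the Ensembl identifier, and no single one was picked by its level. The family and the gene lists used below were chosen with earlier results of these data known. The 12 RNA-seq samples came from 2 human hepatoma cell lines in culture and were made to ask how gene expression changed when CENPU, a subunit of the inner kinetochore, was knocked down. The 4 groups had 3 samples each: MHCC-97H cells with si-CENPU, a small interfering RNA against CENPU (genotype label CENPU knockdown), MHCC-97H cells with the control RNA si-NC (label WT), Huh-7 cells with si-CENPU, and Huh-7 cells with si-NC. MHCC-97H is a hepatocellular carcinoma line and Huh-7 a hepatoma line known for secreting liver plasma proteins. All 4 groups were grown in the same medium and all were transfected, so no group was left untransfected, and each line stands for itself rather than for liver tumours at large.

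HOX genes encode homeodomain transcription factors that give cells along the head-to-tail axis and along the limb their regional identity. They lie in 4 clusters, and the order of the genes along each cluster follows the order of their expression along the body, with low-numbered genes active towards the head and high-numbered genes towards the tail. Genes with the same number in different clusters are paralogs. Polycomb complexes keep silent HOX genes closed, MLL complexes keep active ones open, and retinoic acid and CDX factors act upstream in the embryo. In adult tissues and in cell lines, the set of active HOX genes often carries over the position from which the cells came.

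In GENCODE release 29 on GRCh38, the HOXA cluster had 11 members on the minus strand of chromosome 7, and the HOXB cluster had 10 on the minus strand of chromosome 17 (48528526 to 48729178). The HOXC cluster had 9 members on the plus strand of chromosome 12 (53938765 to 54056030), and the HOXD cluster 9 on the plus strand of chromosome 2 (176092891 to 176190907). The members were split by number into 8 anterior (groups 1 to 3), 15 central (4 to 8) and 16 posterior ones (9 to 13).

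Levels are TPM, a unit in which read counts are divided by transcript length and scaled to the same total in every library, so that levels can be set side by side between genes. The sequencing depth is unknown, since this unit does not carry it, and a value of 0 is reported only as listed at 0. The labels do not say if samples of one group were grown separately, and each p-value therefore reflects the spread among the samples alone, perhaps a technical one. In bulk RNA, fewer cells with a transcript and less of it per cell cannot be told apart. CENPU lay at 0.22 to 0.45 TPM in si-CENPU against 0.83 to 1.17 TPM in si-NC libraries of MHCC-97H, and at 0.11 to 0.45 TPM against 0.53 to 0.84 TPM in Huh-7. All 17 hepatocyte markers examined were lower in MHCC-97H than in Huh-7. Their summed levels were 12.2 to 14.5 TPM in the 6 MHCC-97H libraries and 6941 to 7893 TPM in the 6 Huh-7 libraries. The MHCC-97H sum was mostly CEBPA, at 9.68 to 12.47 TPM. ALB, the gene of albumin, was listed at 0 in 5 of 6 MHCC-97H libraries, so the liver label was not borne out by its defining markers in that line. Of 10 mesenchymal markers 3 could be tested, and VIM and PDGFRB were called higher and COL3A1 lower in MHCC-97H. Untested ones went both ways, COL1A1 being higher in MHCC-97H and COL1A2 and LUM in Huh-7 libraries. The sum of all 10, mostly VIM, was 144 to 232 TPM in MHCC-97H against 51.4 to 84.9 TPM in Huh-7 libraries. Endothelial markers summed to at most 0.71 TPM in any library, and 6 blood markers to 1.82 to 2.97 TPM in MHCC-97H against 16.1 to 29.9 TPM in Huh-7, mostly LYZ and CD14. The part of these differences in the HOX results was not tested.

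MHCC-97H held more HOX RNA than Huh-7 in both transfections, and the surplus lay mostly in posterior genes. The 39 members together reached 92.1 ± 11.7 TPM (SD, n = 3) in MHCC-97H with si-CENPU and 97.5 ± 10.9 TPM with si-NC, against 29.6 ± 3.96 and 26.6 ± 6.84 TPM in Huh-7. The lowest MHCC-97H library, at 79.2 TPM, lay well above the highest Huh-7 library, at 33.1 TPM. The ratio of the lines was 3.12 in si-CENPU and 3.67 in si-NC libraries, and 2.15 and 2.39 after trimmed-mean scaling, which removes a shift shared by most genes. Posterior members made up 77.6% ± 0.679 and 79.2% ± 1.66 of all HOX TPM in MHCC-97H (si-CENPU and si-NC, SD, n = 3 each), against 64.3% ± 3.23 and 64.1% ± 0.938 in Huh-7. Anterior members made up 3.42% ± 0.439 and 3.01% ± 0.238 in MHCC-97H against 14.9% ± 2.08 and 14.9% ± 0.726 in Huh-7. These shares are within a library, so a single scaling factor per library does not move them.

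**Figure D1:**
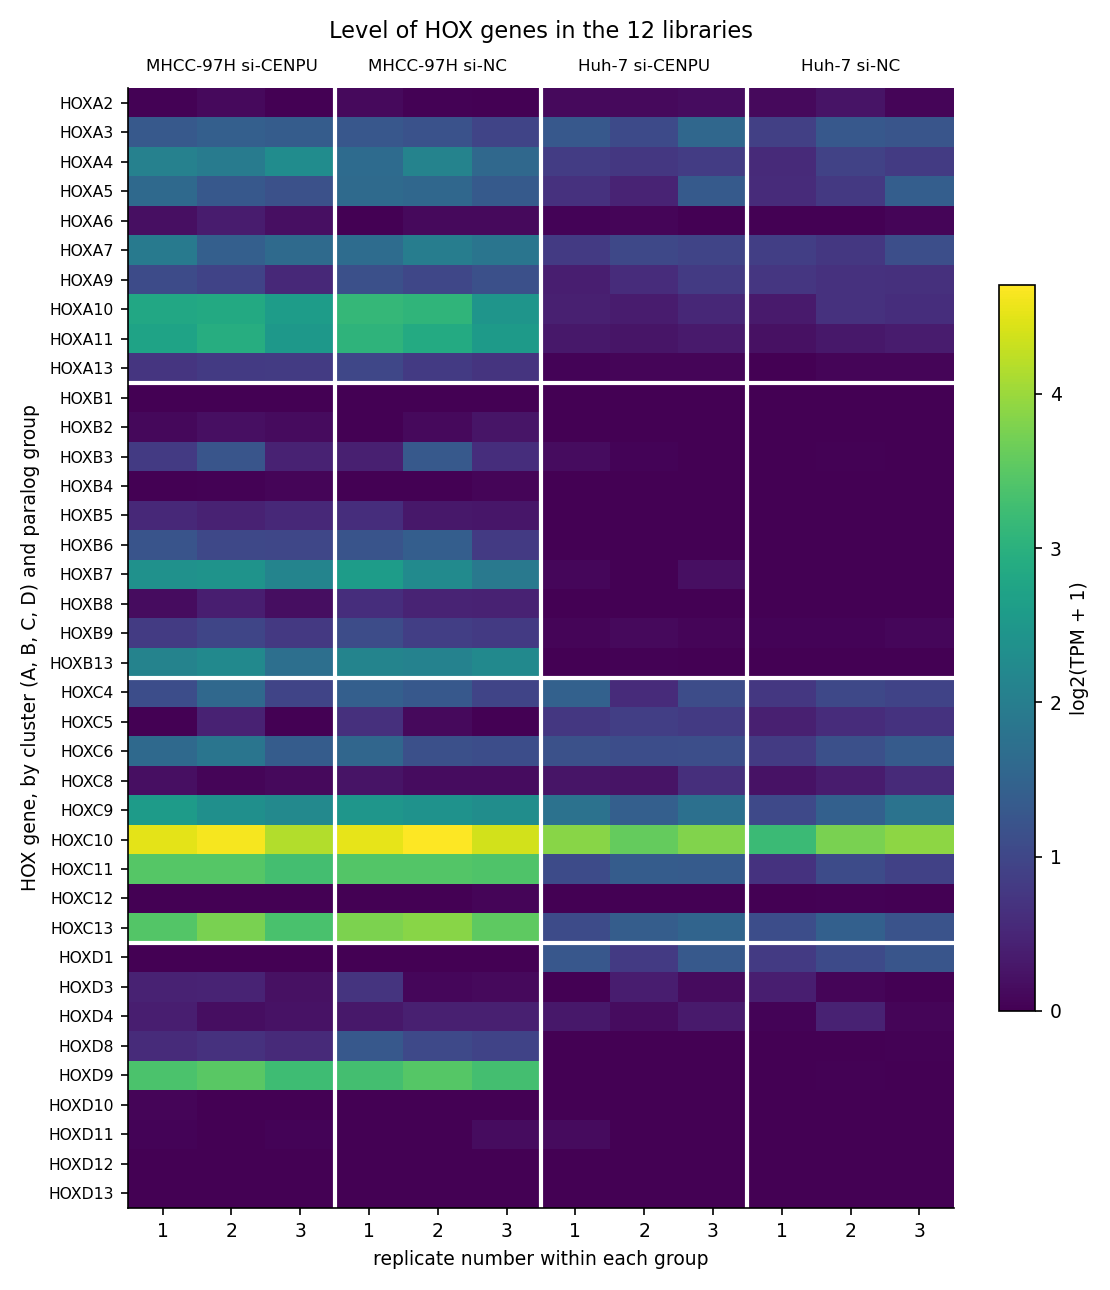
Level of the HOX genes, 1 member not shown (rows, by cluster and paralog group) in each of the 12 libraries (columns, 3 per group), as log2(TPM + 1) by colour. HOXC10 is the brightest row in every library, the HOXB7, HOXB13 and HOXD9 rows are bright in MHCC-97H and dark in Huh-7, and HOXD1 is brighter in Huh-7.

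The clusters differed in how they were used. HOXC held the most RNA in every group, at 48.9 ± 7.16 and 51.9 ± 4.95 TPM in MHCC-97H against 21.1 ± 2.10 and 18.5 ± 4.82 TPM in Huh-7 (si-CENPU and si-NC, SD, n = 3 each). HOXA followed with 22.2 ± 1.67 and 23.4 ± 3.87 TPM in MHCC-97H against 6.69 ± 1.69 and 6.72 ± 1.81 TPM in Huh-7. HOXD reached 10.4 ± 1.09 and 11.0 ± 0.569 TPM in MHCC-97H against 1.59 ± 0.381 and 1.32 ± 0.223 TPM in Huh-7, and nearly all of it was one gene, HOXD9, in MHCC-97H. HOXB summed to 8.44 to 12.3 TPM in the 6 MHCC-97H libraries and to 0.03 to 0.22 TPM in the 6 Huh-7 libraries, where it was close to silent in the table.

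Of the 39 members, 16 averaged at least 1 TPM in MHCC-97H with si-CENPU and 18 with si-NC, against 9 and 7 in Huh-7. None of the HOXB genes reached that level in Huh-7, and 8 of the 10 were listed at 0 in all 3 si-NC libraries there. HOXB1, HOXD12 and HOXD13 were listed at 0 in all 12 libraries, and 16 members stayed below 1 TPM in every library, those 3 included. HOXA13, HOXB3 and HOXB9 reached 1.0, 1.49 and 1.13 TPM in their highest library without any group mean reaching 1 TPM, and 19 of the other 20 members are described one by one. Summed by paralog group, group 10 was the highest in all 4 groups of samples, at 26.6 ± 4.26 and 29 ± 4.16 TPM in MHCC-97H against 12.9 ± 1.36 and 12.1 ± 3.16 TPM in Huh-7. Groups 9, 11 and 13 came next in MHCC-97H, while group 12 held at most 0.04 TPM in any library.

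**Figure D2:**
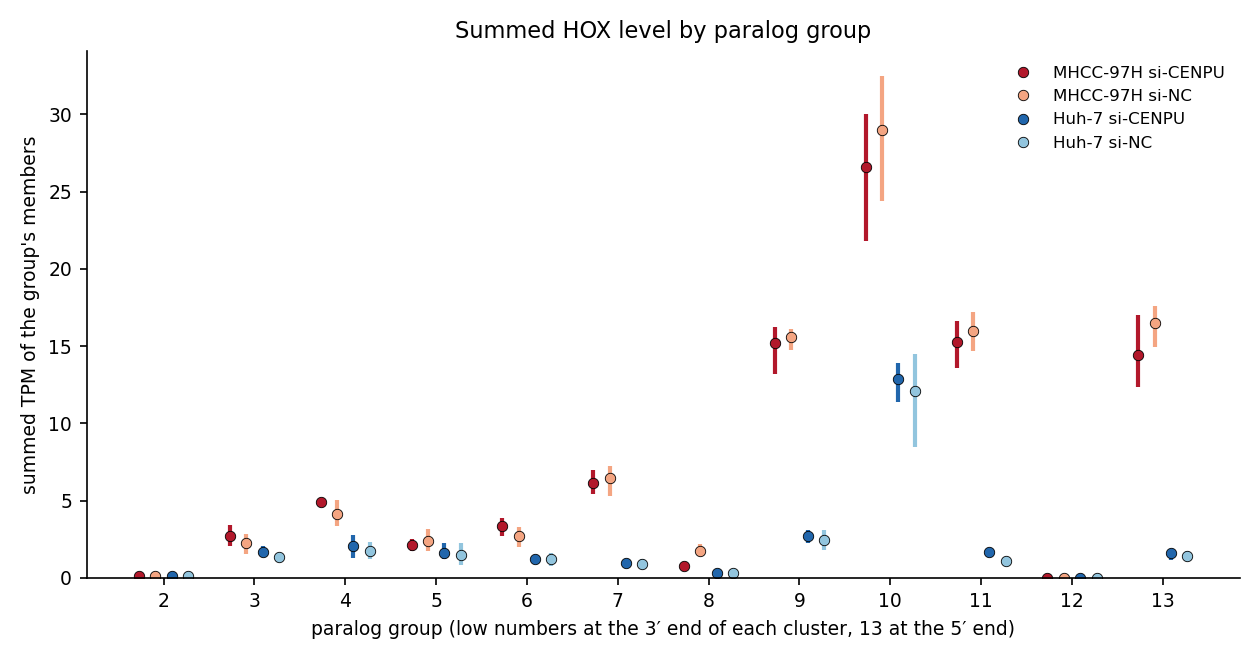
Summed TPM of the members of each paralog group (2 to 13), with the mean of 3 libraries as a point and the lowest to highest library as a bar, for the 4 groups of samples. Group 10 is the highest throughout, and groups 9, 11 and 13 stand out in MHCC-97H.

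HOXC10, a posterior gene of the lumbar region and hindlimb in the mouse, was the most abundant member in every library. It had 21.8, 23.8 and 16.8 TPM in MHCC-97H with si-CENPU and 22.2, 25.1 and 19.9 TPM with si-NC, against 13.6, 11.1 and 13.1 TPM in Huh-7 with si-CENPU and 8.21, 12.6 and 13.9 TPM with si-NC. The lines did not overlap. HOXC10 alone made up 42.8% ± 2.75 and 43.6% ± 0.0592 of all HOX TPM in Huh-7 (SD, n = 3 each), a larger share than the 22.5% ± 1.12 and 23.0% ± 1.25 in MHCC-97H, although its level was higher in MHCC-97H.

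HOXC13, which in humans is needed for hair and nails, had 9.96, 12.5 and 9.25 TPM in MHCC-97H with si-CENPU and 12.7, 13.7 and 10.6 TPM with si-NC, against 1.12, 1.62 and 1.85 TPM in Huh-7 with si-CENPU and 1.16, 1.71 and 1.31 TPM with si-NC. HOXC11, another posterior HOXC gene, had 10.0, 9.99 and 8.89 TPM in MHCC-97H with si-CENPU and 9.87, 9.87 and 9.66 TPM with si-NC. In Huh-7 it had 1.12, 1.58 and 1.55 TPM with si-CENPU and 0.61, 1.1 and 0.88 TPM with si-NC. Every MHCC-97H library lay far above every Huh-7 library for both genes. HOXC12, which lies between them on the chromosome, was at most 0.04 TPM in any library. HOXC9, which marks the thoracic level in the mouse spinal cord, had 4.99, 4.06 and 3.63 TPM in MHCC-97H with si-CENPU and 4.52, 4.29 and 3.92 TPM with si-NC, against 2.43, 1.68 and 2.34 TPM in Huh-7 with si-CENPU and 1.06, 1.73 and 2.47 TPM with si-NC. The HOXC9 levels of the lines did not overlap either, but stood closer together.

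HOXD9, which acts in the limb and lumbar spine in the mouse, gave the largest difference on the log2(TPM + 1) scale of the 15 members tested. It had 9.35, 10.3 and 8.43 TPM in MHCC-97H with si-CENPU and 8.90, 9.98 and 8.89 TPM with si-NC, whereas in Huh-7 it was listed at 0 in 5 of 6 libraries and at 0.02 TPM in si-NC replicate 2. Its neighbours towards the posterior end were nearly or wholly silent in both lines, with HOXD10 at no more than 0.05 TPM and HOXD11 at no more than 0.12 TPM. In MHCC-97H the level of HOXD9 overlapped that of HOXC11 and lay above that of HOXA10.

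HOXA10, a gene of the uterus and posterior axis in the mouse, had 6.04, 6.24 and 5.03 TPM in MHCC-97H with si-CENPU and 7.76, 7.42 and 4.45 TPM with si-NC, against 0.33, 0.29 and 0.43 TPM in Huh-7 with si-CENPU and 0.27, 0.59 and 0.54 TPM with si-NC. HOXA11, which acts in limb and uterus in the mouse, had 5.59, 6.63 and 4.69 TPM in MHCC-97H with si-CENPU and 7.33, 6.34 and 4.91 TPM with si-NC, against 0.23, 0.20 and 0.26 TPM in Huh-7 with si-CENPU and 0.16, 0.24 and 0.29 TPM with si-NC. The 2 genes are neighbours, and their levels overlapped in MHCC-97H. Means stood 16.5-fold (si-CENPU) and 14-fold (si-NC) above Huh-7 for HOXA10, and 24.5-fold and 26.9-fold for HOXA11.

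HOXA9, a gene of blood stem cells that is often high in leukaemia, differed less between the lines than HOXA10 and HOXA11. It had 1.11, 0.92 and 0.45 TPM in MHCC-97H with si-CENPU and 1.23, 0.99 and 1.23 TPM with si-NC, against 0.31, 0.51 and 0.73 TPM in Huh-7 with si-CENPU and 0.68, 0.60 and 0.58 TPM with si-NC. Its means stood 1.6-fold (si-CENPU) and 1.85-fold (si-NC) above Huh-7. The lines overlapped only through MHCC-97H si-CENPU replicate 3, and the si-NC groups did not overlap. HOXA13, the last gene of the cluster and a gene of hand, foot and genital formation in humans, had 0.64 to 1.0 TPM in the MHCC-97H libraries against 0 to 0.05 TPM in the Huh-7 libraries. HOXA13 is named here after its values were seen, since no group mean reached 1 TPM. HOXB13, a posterior gene best known from the prostate, had 3.30, 3.73 and 2.31 TPM in MHCC-97H with si-CENPU and 3.35, 3.22 and 3.69 TPM with si-NC, and was listed at 0 in 5 of 6 Huh-7 libraries and at 0.02 TPM in si-CENPU replicate 2.

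Promoter sequences were available for 20 of the members, in 27 windows that run from 250 bases before to 50 bases after a RefSeq start on GRCh38.p14. HOXA10 (chr7:27179812-27180111, minus strand), HOXA11 (chr7:27185183-27185482, minus strand) and HOXA13 (chr7:27200042-27200341, minus strand) are shown because they are the posterior HOXA genes that separated the lines, each 5′ to 3′ on its own strand. HOXA10 has a second window (chr7:27174271-27174570), which is not shown and also holds 2 matches. Capitals mark matches to CCAAT and to TATAAA on either strand.
HOXA10: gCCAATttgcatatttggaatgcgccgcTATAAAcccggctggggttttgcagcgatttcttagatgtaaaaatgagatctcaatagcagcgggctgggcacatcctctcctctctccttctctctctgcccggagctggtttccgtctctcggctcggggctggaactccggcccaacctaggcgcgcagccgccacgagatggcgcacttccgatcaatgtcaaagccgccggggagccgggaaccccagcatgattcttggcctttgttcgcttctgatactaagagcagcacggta
HOXA11: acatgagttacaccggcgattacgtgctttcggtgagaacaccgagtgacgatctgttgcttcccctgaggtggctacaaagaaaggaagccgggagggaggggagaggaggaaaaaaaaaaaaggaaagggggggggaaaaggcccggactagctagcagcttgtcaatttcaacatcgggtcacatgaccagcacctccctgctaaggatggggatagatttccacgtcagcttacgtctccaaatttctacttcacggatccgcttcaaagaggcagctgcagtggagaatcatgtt
HOXA13: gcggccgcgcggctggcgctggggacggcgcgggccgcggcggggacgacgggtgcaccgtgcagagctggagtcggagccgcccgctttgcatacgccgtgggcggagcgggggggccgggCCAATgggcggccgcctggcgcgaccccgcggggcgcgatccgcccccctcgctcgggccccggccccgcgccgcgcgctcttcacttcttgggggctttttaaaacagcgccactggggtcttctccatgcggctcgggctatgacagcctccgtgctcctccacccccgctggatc
The 3 windows shown share no common match, and the HOXA11 window holds none of the motifs searched. It shares 275 bases with the window of HOXA11-AS, which starts on the other strand.

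Among central genes, HOXA4 and HOXA7 were higher in MHCC-97H, while HOXA5, HOXC4 and HOXC6 were not separated. HOXA4 had 3.18, 2.86 and 3.91 TPM in MHCC-97H with si-CENPU and 2.12, 3.28 and 2.01 TPM with si-NC, against 0.78, 0.69 and 0.79 TPM in Huh-7 with si-CENPU and 0.48, 0.91 and 0.77 TPM with si-NC. HOXA7 had 2.82, 1.68 and 2.09 TPM in MHCC-97H with si-CENPU and 2.15, 3.0 and 2.53 TPM with si-NC, against 0.73, 1.02 and 0.94 TPM in Huh-7 with si-CENPU and 0.84, 0.69 and 1.2 TPM with si-NC. Both genes were above all Huh-7 libraries in all 6 MHCC-97H libraries. HOXA5, a gene of lung formation in the mouse, had 2.06, 1.44 and 1.25 TPM in MHCC-97H with si-CENPU and 2.08, 1.97 and 1.51 TPM with si-NC, against 0.59, 0.38 and 1.51 TPM in Huh-7 with si-CENPU and 0.49, 0.72 and 1.66 TPM with si-NC. Replicate 3 of each Huh-7 group was high for HOXA5 and reached into the MHCC-97H range.

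HOXC4 had 1.16, 2.0 and 0.95 TPM in MHCC-97H with si-CENPU and 1.69, 1.46 and 0.95 TPM with si-NC, against 1.74, 0.50 and 1.14 TPM in Huh-7 with si-CENPU and 0.70, 1.02 and 0.92 TPM with si-NC. HOXC6, a gene of the forelimb level in the mouse, had 2.05, 2.57 and 1.59 TPM in MHCC-97H with si-CENPU and 1.95, 1.22 and 1.15 TPM with si-NC, against 1.25, 1.17 and 1.19 TPM in Huh-7 with si-CENPU and 0.77, 1.23 and 1.56 TPM with si-NC. The lines overlapped for both genes, which share 484 bases of exon on the same strand, so reads could not be assigned to one or the other there.

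The central genes HOXB6 and HOXB7 were higher in MHCC-97H, while HOXB4 was at most 0.04 TPM in any library. HOXB7 had 4.19, 4.36 and 3.34 TPM in MHCC-97H with si-CENPU and 5.09, 3.78 and 2.76 TPM with si-NC, against 0.06, 0 and 0.14 TPM in Huh-7 with si-CENPU and 0 TPM in all 3 si-NC libraries. HOXB6 had 1.34, 1.02 and 0.99 TPM in MHCC-97H with si-CENPU and 1.33, 1.65 and 0.75 TPM with si-NC, and was listed at 0 in all 6 Huh-7 libraries. HOXD8, a central gene beside HOXD9, had 0.49, 0.60 and 0.47 TPM in MHCC-97H with si-CENPU and 1.47, 1.06 and 0.93 TPM with si-NC, against 0 TPM in 5 of 6 Huh-7 libraries and 0.02 TPM in si-NC replicate 3. HOXB6, HOXB7 and HOXD8 had no overlap between the lines.

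Among anterior genes, HOXD1 was higher in Huh-7, HOXB3 was higher in MHCC-97H and HOXA3 was not separated. HOXB3 had 0.34 to 1.49 TPM in the MHCC-97H libraries against 0 to 0.11 TPM in the Huh-7 libraries. HOXB3 and HOXB6 share 433 bases of exon on the same strand, so reads there could not be assigned to one or the other. HOXB3 is named here after its values were seen, since no group mean reached 1 TPM. HOXD1, which in the mouse acts in pain-sensing neurons, was listed at 0 in all 6 MHCC-97H libraries, against 1.42, 0.73 and 1.48 TPM in Huh-7 with si-CENPU and 0.73, 1.07 and 1.35 TPM with si-NC. All of its Huh-7 libraries lay above all MHCC-97H libraries. HOXA3, a gene of thymus and parathyroid formation in the mouse, had 1.5, 1.67 and 1.57 TPM in MHCC-97H with si-CENPU and 1.41, 1.27 and 0.95 TPM with si-NC, against 1.44, 1.07 and 1.96 TPM in Huh-7 with si-CENPU and 0.85, 1.46 and 1.35 TPM with si-NC, and the lines overlapped.

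**Figure D3:**
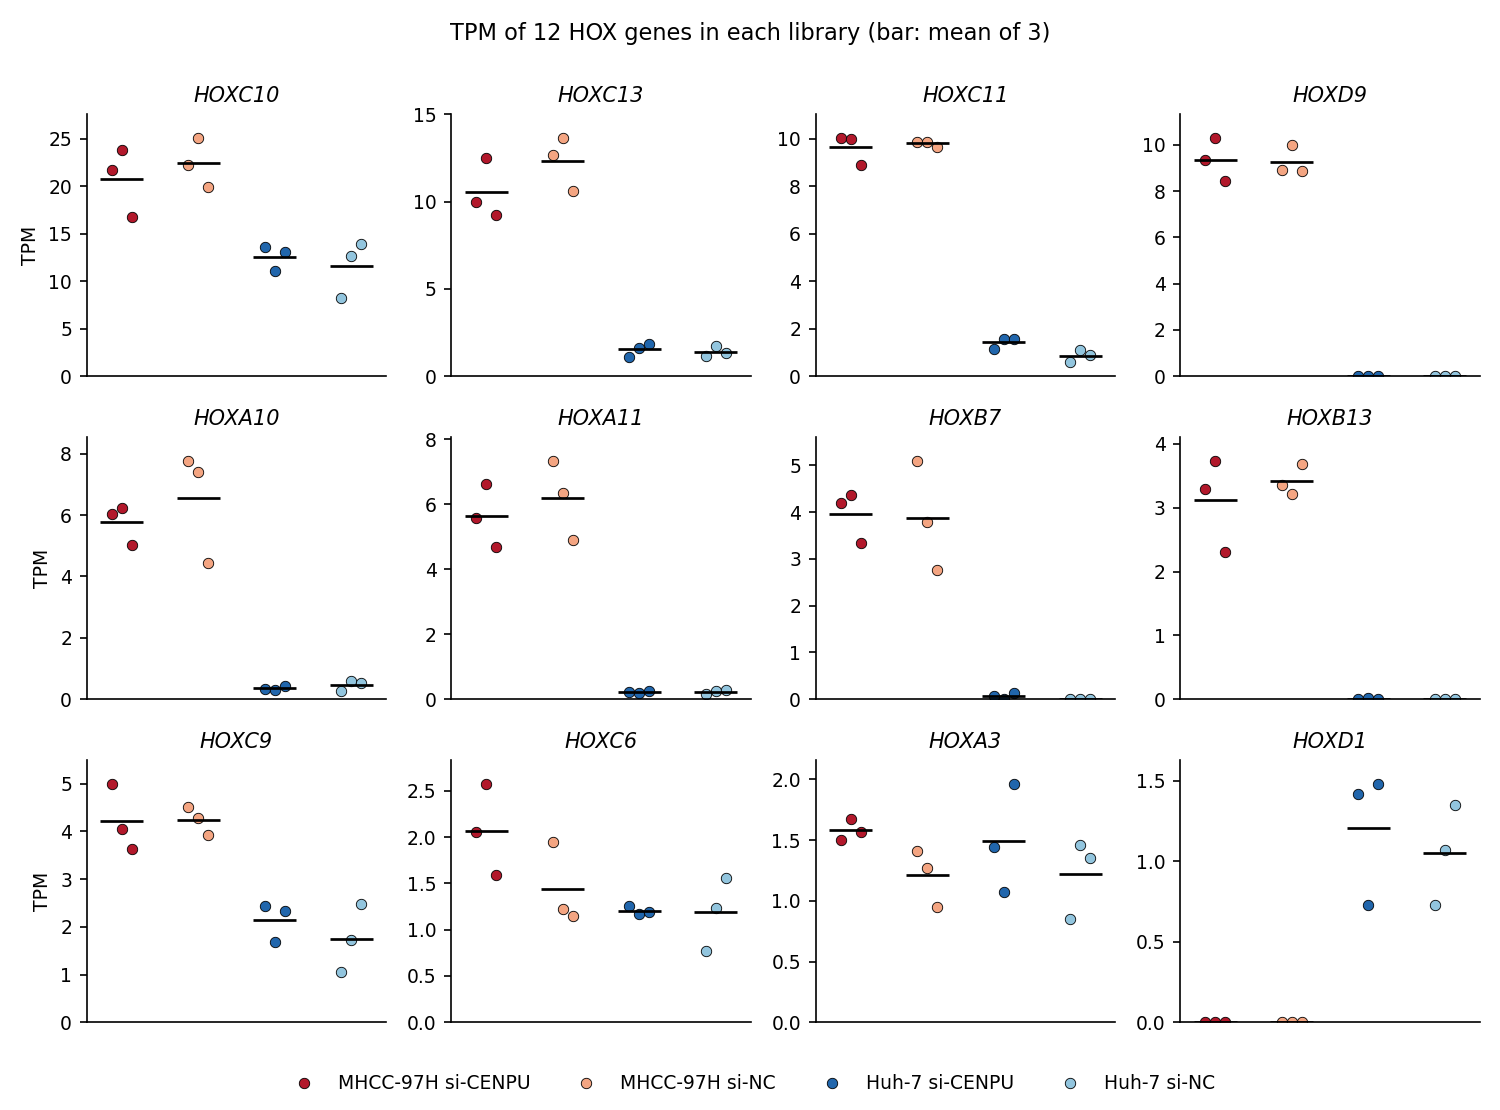
TPM of 12 HOX genes in each library, with 3 points and their mean as a bar for each of the 4 groups, and a separate axis from 0 for each gene. HOXC10 to HOXC9 lie higher in MHCC-97H without overlap, HOXC6 and HOXA3 overlap between the lines, and HOXD1 is higher in Huh-7.

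HOXD1 and HOXD8 belong to the same cluster and were listed at 0 in opposite lines, HOXD1 in MHCC-97H and HOXD8 in 5 of 6 Huh-7 libraries. Their promoters (HOXD8, chr2:176129455-176129754, and HOXD1, chr2:176188418-176188717, both on the plus strand) are shown for that contrast, 5′ to 3′, with capitals for CCAAT on either strand and for TTTATGG, a sequence bound by CDX factors.
HOXD8: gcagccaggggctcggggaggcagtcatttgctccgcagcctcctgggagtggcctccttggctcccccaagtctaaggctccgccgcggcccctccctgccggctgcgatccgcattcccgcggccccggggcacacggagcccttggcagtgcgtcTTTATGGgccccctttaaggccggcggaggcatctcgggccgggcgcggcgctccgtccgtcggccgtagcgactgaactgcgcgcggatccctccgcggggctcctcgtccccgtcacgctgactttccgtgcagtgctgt
HOXD1: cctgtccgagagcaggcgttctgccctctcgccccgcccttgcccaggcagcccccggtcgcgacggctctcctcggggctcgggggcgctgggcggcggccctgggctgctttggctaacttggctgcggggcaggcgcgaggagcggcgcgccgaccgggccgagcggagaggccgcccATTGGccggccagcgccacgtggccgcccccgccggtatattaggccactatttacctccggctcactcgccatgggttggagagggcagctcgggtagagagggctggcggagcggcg
HOXC4 and HOXC5 have the same window, so the 27 hold 26 distinct sequences. Of these, 17 held CCAAT on either strand, against 34.6% of all 35116 promoter windows, and 5 held TATAAA, against 11.5%. TTTATGG occurred in 1 HOX sequence, that of HOXD8, against 2.54% of all windows. TTTACGA, a sequence bound by posterior HOX proteins, occurred in 1, that of HOXC4 and HOXC5, against 0.541%. AGGTCA, a nuclear receptor sequence, occurred in none, against 13.8%. Several windows overlap or belong to the same gene, and a match says only that the letters are there. HOX windows held a median of 22 CG pairs, against 14 in all windows.

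The line difference was tested with limma on log2(TPM + 1) for genes averaging at least 1 TPM over the 12 samples, and a gene was called at an adjusted p (Benjamini-Hochberg over all tested genes) below 0.05. This filter left 15 of the 39 members, and a member high in MHCC-97H alone could pass it, so counts over the 15 describe them and support nothing further. In si-NC libraries 11 of the 15 were called higher in MHCC-97H and none lower, where 50.1% of all 11088 tested genes were called higher and 22.9% lower. In si-CENPU libraries 12 of the 15 were called higher and none lower, against 46.2% and 23.9% of all tested genes. A difference of at least 2 on the log2 scale was found for 7 of the 15 in each transfection, against 9.18% of all tested genes in si-NC and 8.43% in si-CENPU libraries.

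HOXD9 differed most and had the smallest adjusted p, with a log2 difference of 3.37 in si-CENPU libraries and 3.35 in si-NC libraries (SE 0.112 each, adjusted p = 2.05e-10 and 2.15e-10). HOXC11, HOXA11 and HOXC13 came next in order of p in si-NC libraries. With si-CENPU libraries given first, HOXC11 differed by 2.14 and 2.54 (SE 0.13, adjusted p = 4.27e-08 and 9.22e-09) and HOXA11 by 2.42 and 2.54 (SE 0.155, adjusted p = 6.71e-08 and 4.41e-08). HOXC13, another posterior gene like these 3, differed by 2.19 and 2.47 (SE 0.162, adjusted p = 2.38e-07 and 8.13e-08). HOXA10 differed by 2.32 and 2.34 (SE 0.185), HOXB7 by 2.21 and 2.26 (SE 0.173) and HOXB13 by 2.01 and 2.14 (SE 0.144), and their adjusted p lay between 1.03e-07 and 4.73e-07. Sizes against genes at or near 0 depend on the added constant, and with 0.1 in place of 1 HOXD9 differed by 6.46 in si-NC libraries.

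Smaller differences were called for HOXA4 (1.29 in si-CENPU and 1.0 in si-NC libraries, SE 0.168), HOXA7 (0.74 and 0.90, SE 0.168), HOXC9 (0.73 and 0.96, SE 0.19) and HOXC10 (0.67 and 0.92, SE 0.187). Their largest adjusted p was 0.00753. HOXC6 was called in si-CENPU libraries alone, at 0.47 (SE 0.184, adjusted p = 0.0402) against 0.16 in si-NC libraries (adjusted p = 0.449). The difference between those values, which is the difference of its si-CENPU responses, was not called. Leaving out any one of MHCC-97H si-CENPU replicates 1 and 2 or Huh-7 si-CENPU replicates 1, 2 and 3 ended the HOXC6 call, with values of 0.46, 0.35, 0.48, 0.46 and 0.46. HOXA5 was not called, at 0.54 and 0.58 (adjusted p = 0.0873 and 0.063). Without Huh-7 si-CENPU replicate 3 it was called in both transfections, at 0.79 in si-CENPU and 0.58 in si-NC libraries, and without Huh-7 si-NC replicate 3 it was called in si-NC libraries at 0.83. HOXC4 (0.17 and 0.32) and HOXA3 (0.07 and -0.00) were not called.

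The scale of the libraries moved these values. The median tested gene was higher in MHCC-97H by 0.403 in si-CENPU and by 0.494 in si-NC libraries on the log2 scale, beside a median of 1.29 and 1.0 over the 15 tested HOX genes, and the trimmed-mean factors were 1.065 to 1.379 in MHCC-97H and 0.658 to 0.909 in Huh-7 libraries. Without scaling, 5125 of all tested genes were called higher and 2647 lower in si-CENPU libraries, and 5557 and 2542 in si-NC libraries. After trimmed-mean scaling 3500 (31.8%) of 11005 tested genes were called higher and 4004 (36.4%) lower in si-CENPU libraries. In si-NC libraries 3591 (32.6%) were then called higher and 3983 (36.2%) lower. The HOX split was then 8 higher and 1 lower of 16 in si-CENPU libraries and 11 higher and 2 lower of 16 in si-NC libraries. HOXA10, HOXA11, HOXB7, HOXB13, HOXC11, HOXC13 and HOXD9 still differed by 1.74 to 3.14. HOXA3 was called lower in si-NC libraries at -0.34 and not in si-CENPU libraries at -0.25. HOXC10 then differed by 0.17 and 0.32, HOXC9 by 0.33 and 0.51, HOXA7 by 0.43 and 0.52 and HOXC6 by 0.14 and -0.19, and in si-CENPU libraries none of these 4 was called. Relative to the median gene, the 7 large posterior and HOXB differences remained large, and those of HOXC10 and HOXC9 were small.

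**Figure D4:**
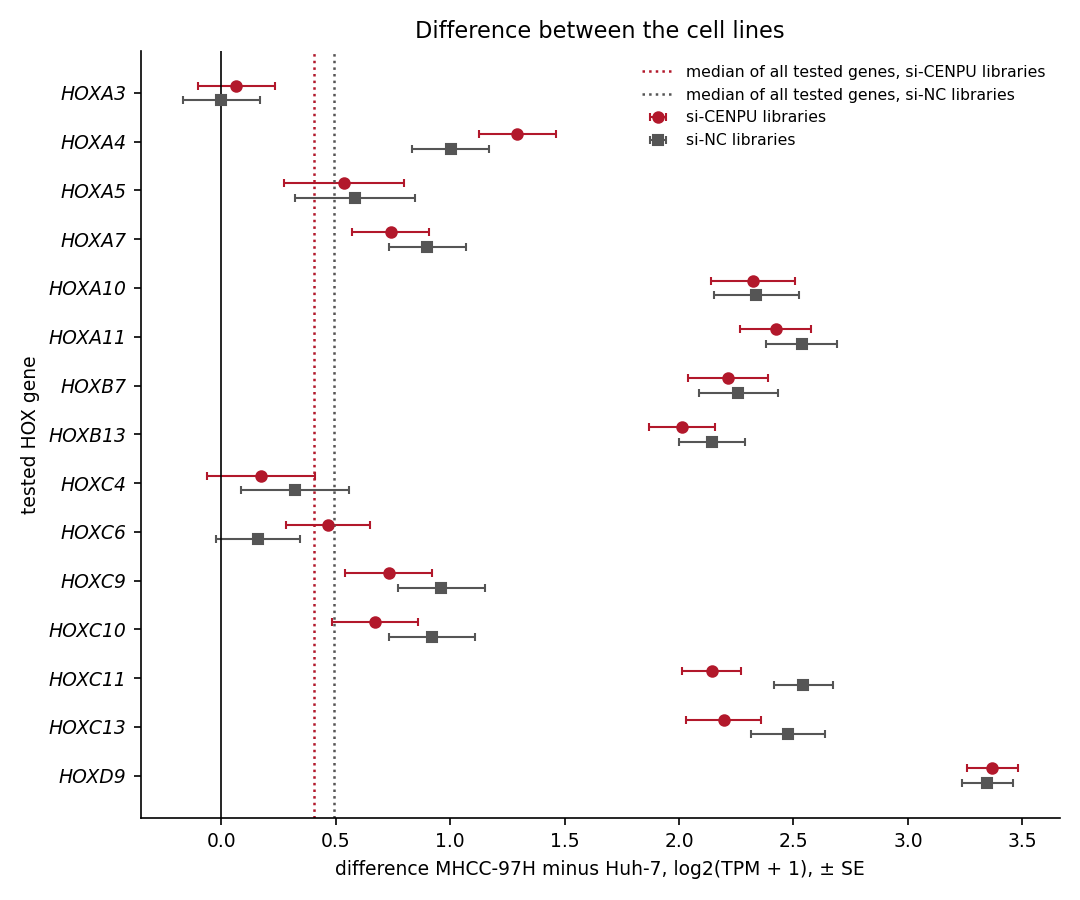
Difference MHCC-97H minus Huh-7 on log2(TPM + 1) with its SE for the 15 tested HOX genes, in si-CENPU libraries (circles) and si-NC libraries (squares), with the median of all tested genes in each as a dotted line. HOXA10, HOXA11, HOXB7, HOXB13, HOXC11, HOXC13 and HOXD9 lie at 2.01 or more, and HOXA3 lies near 0.

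With no filter on level, 36 members could be tested, all but the 3 listed at 0 throughout. HOXD1 was then called lower in MHCC-97H, at -1.13 in si-CENPU and -1.02 in si-NC libraries (adjusted p = 0.000181 and 0.00034). HOXB6 was called higher, at 1.08 and 1.14 (adjusted p = 0.000156 and 9.82e-05), and HOXD8 at 0.60 and 1.09 (adjusted p = 0.000447 and 5.32e-06). HOXA9 was not called, at 0.26 and 0.41 (adjusted p = 0.268 and 0.0731). In all, 19 were called higher and 3 lower in si-CENPU libraries, against 22.1% and 14.0% of all 30267 genes with a value, and 18 higher and 2 lower in si-NC libraries, against 24.6% and 13.5%.

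Setting the 6 MHCC-97H libraries against the 6 Huh-7 libraries, 18 of the 39 members lay wholly higher in MHCC-97H, 2 wholly higher in Huh-7, and 19 overlapped. Of all 30267 genes with a value, 21.5% lay wholly higher and 12.7% wholly lower in MHCC-97H. By position, 10 of 16 posterior, 7 of 15 central and 1 of 8 anterior members lay wholly higher in MHCC-97H. By cluster, those higher in MHCC-97H were 7 of 10 HOXB, 5 of 11 HOXA, 4 of 9 HOXC and 2 of 9 HOXD members. Overlap, here and for the single genes above, was judged on TPM without trimmed-mean scaling, so a shift shared by most genes enters it. These shares describe the chosen genes and carry no test.

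No HOX gene passed the test when CENPU was knocked down. None of the 15 tested members was called with si-CENPU in MHCC-97H, in Huh-7 or for the difference between the lines, where 0.00902% of all tested genes, 1 gene each, was called. At an unadjusted limma p under 0.05 there were 0 of 15 in MHCC-97H, 1 in Huh-7 and 0 for the difference, beside 379, 507 and 383 of all tested genes. The standard errors ran from 0.112 to 0.261 on the log2 scale within a line, so changes of that order could not have been detected. Changes well above the SE could be missed too. HOXC11 in Huh-7, at 0.38 with an SE of 0.13, had a limma adjusted p of 0.957. The median log2 change of the 15 was -0.0237 in MHCC-97H and 0.0353 in Huh-7, beside -0.0517 and 0.00952 over all tested genes. No other setting tried called a HOX gene in these comparisons.

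In MHCC-97H the 5 members with the smallest p were HOXA4 (log2 change 0.33, SE 0.168), HOXC6 (0.33, SE 0.184), HOXA3 (0.23, SE 0.168), HOXC13 (-0.20, SE 0.162) and HOXA7 (-0.16, SE 0.168), each with an adjusted p of 1 in limma. In Huh-7 they were HOXC11 (0.38, SE 0.13, limma adjusted p = 0.957), HOXC9 (0.22, SE 0.19), HOXA3 (0.16, SE 0.168), HOXC10 (0.14, SE 0.187) and HOXA10 (-0.11, SE 0.185). HOXC11 was the one tested member whose Huh-7 groups did not overlap, and its values are given above. Its change was 0.28 without Huh-7 si-NC replicate 1. That library was the lowest of its group for 14 of the 15 tested members, and for 69.4% of all tested genes. In MHCC-97H, si-CENPU replicate 3 was the lowest for 12 of the 15 (63.9% of all tested genes) and si-NC replicate 3 for 13 (59.8%).

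Libraries that do not overlap between si-CENPU and si-NC were also counted over all members. In MHCC-97H, HOXA3 lay wholly higher with si-CENPU, 1 of 15 tested members, where 3.19% of all tested genes did so, and in Huh-7 HOXC11 did, where 3.79% of all tested genes did so. Below the filter, HOXA6 lay higher and HOXB8 and HOXD8 lower in MHCC-97H, and HOXC5 higher in Huh-7, all named after their values were seen. Over all 39 members, 2 lay wholly higher and 3 wholly lower with si-CENPU in MHCC-97H, against 2.09% and 2.7% of all genes with a value, and 2 and 0 in Huh-7, against 2.66% and 2.31%. HOXD8 averaged 0.52 ± 0.07 TPM with si-CENPU and 1.15 ± 0.282 TPM with si-NC in MHCC-97H (SD, n = 3 each). In limma without the filter its change was -0.50 (SE 0.0927, adjusted p = 0.371), which did not pass.

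**Figure D5:**
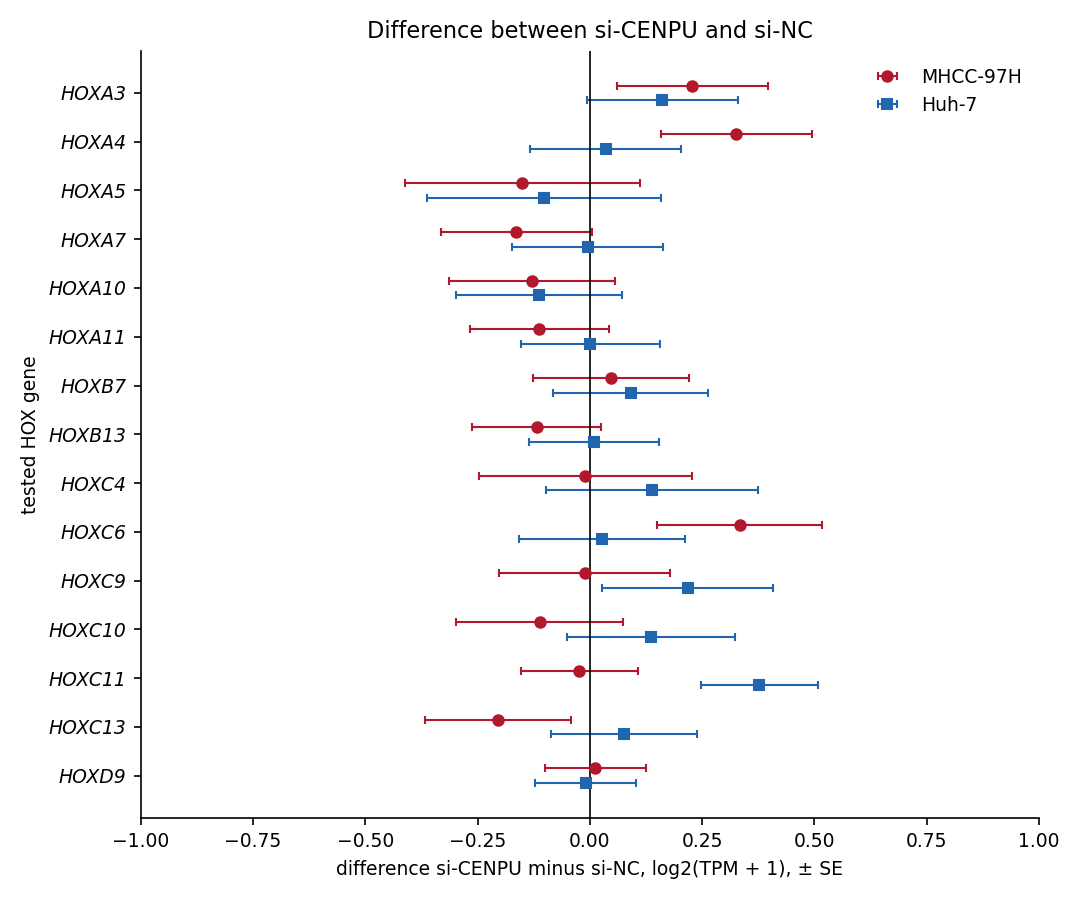
Difference si-CENPU minus si-NC on log2(TPM + 1) with its SE for the 15 tested HOX genes, in MHCC-97H (circles) and Huh-7 (squares). All changes lie between -0.20 and 0.38, and the one farthest from 0 is HOXC11 in Huh-7.

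Of 18 noncoding RNAs listed inside the clusters, 9 could be tested, and 5 were called higher and 2 lower in MHCC-97H in each transfection. Counts for this list and the lists that follow stand beside the shares of all tested genes. Called higher were 46.2% in si-CENPU and 50.1% in si-NC libraries, and lower 23.9% and 22.9%. After trimmed-mean scaling these shares were 31.8% and 32.6% higher, and 36.4% and 36.2% lower. Nothing particular to a list is read from the counts. HOXD-AS2 had 24.9, 25.7 and 29.7 TPM in MHCC-97H with si-CENPU and 32.6, 33.8 and 26.1 TPM with si-NC, against 2.75 to 3.89 TPM in the Huh-7 libraries. HAGLROS had 20.4 to 25.8 TPM in MHCC-97H against 2.82 to 3.52 TPM in Huh-7 libraries. HOTAIRM1 had 41.5 to 52.4 TPM in MHCC-97H against 11.6 to 16.3 TPM in Huh-7 libraries.

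HOXA11-AS had 12.4 to 14.7 TPM in the MHCC-97H libraries against 0.14 to 0.73 TPM in the Huh-7 libraries, as HOXA11 did. Its exons overlap 717 bases (31.1%) of HOXA11 on the other strand, and without a stated strand setting the reads of the 2 genes cannot be told apart there. HAGLR, which starts beside HOXD1 and whose promoter windows share up to 195 bases with that of HOXD1, was lower in MHCC-97H with HOXD1, at 0.24 to 0.41 TPM against 1.99 to 2.93 TPM in Huh-7 libraries. The exons of HAGLR overlap 158 bases (8.0%) of HOXD1 on the other strand, where reads cannot be told apart either. In limma HAGLR differed by -1.41 in si-CENPU and -1.42 in si-NC libraries (SE 0.143, adjusted p = 4.01e-06 and 3.64e-06). HOXA-AS2 was the other one lower in MHCC-97H, at -0.59 and -0.72 (adjusted p = 0.0394 and 0.0149). HAGLR and HOXA-AS2 are named after their values were seen. After trimmed-mean scaling the counts were 4 higher and 3 lower in si-CENPU libraries and 5 higher and 2 lower in si-NC libraries.

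Exons of 25 of the 39 members overlap another annotated gene, 19 of them on the opposite strand and 18 on the same strand, so levels of single members carry that uncertainty. Members whose exons do not overlap share little exact sequence. The longest common run among such pairs was 62 bases, between HOXB3 and HOXD3, and 3 such pairs shared 50 bases or more.

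Some upstream factors of the HOX clusters were at or near 0 in one line. CDX2, a caudal homeobox factor that raises central HOX genes in the embryo, was listed at 0 in all 6 MHCC-97H libraries against 20.3 to 28.4 TPM in the Huh-7 libraries. Of the enzymes that make retinoic acid, ALDH1A1 was listed at 0 in MHCC-97H against 42.6 to 85.0 TPM in Huh-7, and ALDH1A3 had 8.10 to 11.0 TPM in MHCC-97H and was listed at 0 in Huh-7. RARG, a retinoic acid receptor, had 20.4 to 24.3 TPM in MHCC-97H against 0.21 to 0.94 TPM in Huh-7. Of 13 tested regulators, 7 were called higher and 4 lower in MHCC-97H in each transfection, and after trimmed-mean scaling 6 and 4 in si-CENPU and 5 and 4 in si-NC libraries.

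Of 10 tested members of Polycomb repressive complex 2, which writes the silencing mark of HOX clusters, 8 were called higher and 1 lower in MHCC-97H in each transfection, beside 46.2% (si-CENPU) and 50.1% (si-NC) of all tested genes called higher. RBBP7 had 26.8 ± 6.19 and 30.2 ± 7.5 TPM in MHCC-97H against 3.30 ± 1.08 and 3.41 ± 1.53 TPM in Huh-7 (si-CENPU and si-NC, SD, n = 3 each). PHF19 differed by 1.34 in si-NC libraries, EED by 1.66 and RBBP4 by 2.23. After trimmed-mean scaling 7 of 9 were higher in si-CENPU and 6 of 9 in si-NC libraries, and 1 was lower in each.

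Of 17 tested members of Polycomb repressive complex 1, 12 were higher in MHCC-97H in each transfection, and 2 were lower in si-CENPU and 3 in si-NC libraries. BCOR (2.18), CBX6 (1.85) and RING1 (1.42) were higher and PCGF3 (-1.71) lower in si-NC libraries. Of 18 tested members of MLL complexes and H3K27 demethylases, which open HOX chromatin, 7 were higher and 2 lower in si-CENPU and 10 and 2 in si-NC libraries. WDR5 (1.73), PSIP1 (1.37) and MEN1 (0.91) were higher and DOT1L (-1.0) lower in si-NC libraries. These splits leaned on scaling, since trimmed-mean scaling left 7 higher and 4 lower (si-CENPU) and 6 and 4 (si-NC) of 16 for the first, and 3 and 5 (si-CENPU) and 5 and 6 (si-NC) of 16 for the second.

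HOX proteins bind DNA with partners of the TALE class. Of 7 tested TALE genes, 3 were higher and 1 lower in MHCC-97H in si-CENPU and 4 and 1 in si-NC libraries, and 2 and 2 in each after trimmed-mean scaling. PBX4 had 6.24 to 8.49 TPM in MHCC-97H against 0 to 0.09 TPM in Huh-7 libraries. MEIS3 differed by 1.40, TGIF2 by 0.70 and MEIS2 by -0.58 in si-NC libraries. PDX1 and MNX1, homeobox genes related to the clusters, were both lower in MHCC-97H, PDX1 being listed at 0 there against 2.90 to 4.99 TPM in Huh-7.

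Of the genes examined beside HOXB, CALCOCO2, SNX11, CBX1 and NFE2L1 were expressed in Huh-7, whereas SKAP1 and TTLL6, the nearest ones on each side, were close to 0 in both lines. CALCOCO2, 102 kb beyond the HOXB cluster, had 6.24 to 10.1 TPM in the MHCC-97H libraries against 1.59 to 3.87 TPM in Huh-7, and SNX11, 405 kb before it, had 8.01 to 11.0 TPM in MHCC-97H against 3.81 to 6.20 TPM in Huh-7. SKAP1, 98.3 kb before the cluster, was at most 0.51 TPM in either line, and TTLL6, 33.1 kb beyond it, at most 0.36 TPM. CBX1 had 5.64 to 8.81 TPM in MHCC-97H against 2.76 to 6.48 TPM in Huh-7 libraries. NFE2L1 ran the other way without being called, at 5.98 to 11.9 TPM in MHCC-97H against 7.09 to 13.8 TPM in Huh-7 libraries (log2 difference -0.31 in si-CENPU and -0.20 in si-NC libraries). Of 15 tested flanking genes, 10 were higher and 2 lower in MHCC-97H in si-CENPU and 11 and 2 in si-NC libraries, against 6 and 4, and 7 and 3, after trimmed-mean scaling. JAZF1 (1.90), HNRNPA1 (1.52), COPZ1 (1.16) and SNX11 (1.0) had the smallest adjusted p in si-NC libraries.

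With si-CENPU, no gene of these lists was called in either line, and the smallest adjusted p was 0.637, for AFF1 in Huh-7 (log2 change -0.74, SE 0.18). In MHCC-97H, APOA1 (0.33), PHF19 (0.36), MAZ (0.26), JAZF1 (-0.62), TGIF2 (-0.26) and CBX2 (0.24), and in Huh-7, MNX1 (0.61), had the smallest unadjusted p of their lists, each below 0.05, and none passed the adjustment.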

How the data were processed

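Gene TPM values for 12 samples were deposited by the authors as a table. Per the submitters' processing notes, HISAT2 and StringTie were used with GRCh38.p13. Tool versions, strand setting, filters and annotation release are not given in the sources read. The labels' protocols name a TruSeq RNA kit and total RNA, and depth cannot be read from TPM. Columns summed to 998416 to 999065 TPM with 18639 to 20900 genes above 0, and no columns were identical. Of 60664 identifiers, 60447 had a symbol. Groups came from the labels' cell line and treatment.

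Tests used limma 3.58.1 in R 4.3.3 on log2(TPM + 1) with 1 mean per group over all 12 samples and a mean-variance trend, for the 11088 genes with a mean of at least 1 TPM, and were checked on simulated data. Benjamini-Hochberg adjustment ran over all tested genes of a contrast, and 0.05 was the threshold. Two-sided p-values are given. A member whose mean reached 1 TPM in a group is named with every value. For si-CENPU contrasts the 5 members with the smallest p are named, and for other lists the gene with the smallest p where that was below 0.05. The members and gene lists were chosen with earlier results of these data known. Coordinates, GC content and overlaps came from GENCODE release 29 on GRCh38, and promoters from RefSeq on GRCh38.p14. Alternatives were other pseudocounts, filters, trimmed-mean and quantile scaling, no trend, fewer groups, a replicate block, a GC correction and leaving out each library. Python 3.11.15 with matplotlib 3.10.9 drew the figures. PTPRC was not analysed, and 1 HOX gene that enters the counts and sums is not reported singly here.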

Additional observations from a re-analysis of the deposited data

How the results depend on the processing

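The count of HOX genes called between the lines with no filter was 22 in si-CENPU and 20 in si-NC libraries, of 36 tested. With a mean of at least 5 TPM it was 3 in each, and 4282 and 4405 of all genes were called. Fewer genes were tested there, HOXC10, HOXC11 and HOXC13 being the only members with such a mean (16.8, 5.43 and 6.45 TPM). Every HOX gene left by that filter was thus called, but the share of all genes called there is not given, so nothing is read from it. Leaving out each library in turn gave 11 to 12 HOX genes in each transfection, with 7042 to 8061 (si-CENPU) and 7465 to 8213 (si-NC) of all genes. No HOX gene was called with si-CENPU, or for the difference between the lines, under any setting or without any library. The count of all genes called with si-CENPU, 1 in each contrast, was in MHCC-97H 0 with a pseudocount of 0.1, no trend, fewer groups, the replicate block, the GC correction or both of these, and 7 with no filter, trimmed-mean or quantile scaling. In Huh-7 it was 11 with a pseudocount of 0.1, 4 with no filter, 2 with trimmed-mean and 3 with quantile scaling, and 0 with a mean of at least 5 TPM, fewer groups or the block. For the difference it was 0 with pseudocounts of 0.1 and 0.5, a mean of at least 5 TPM, the block and the block with GC correction, 6 with no filter and 2 with trimmed-mean scaling, and without single libraries 0 to 4 in each of the 3. The cause was not tested. Trimmed-mean scaling gave cluster sums in MHCC-97H (si-CENPU and si-NC) of 18.5 and 18.5 TPM for HOXA, 40.6 and 41.2 for HOXC and 8.68 and 8.75 for HOXD, with 8.75 for HOXB (si-NC), and in Huh-7 25.5 for HOXC (si-CENPU) and 1.62 for HOXD (si-NC). Without its top member, HOXA summed to 16.4 and 16.9, HOXB to 6.61 and 7.22, HOXC to 28.1 and 29.5 and HOXD to 1.06 and 1.75 in MHCC-97H, and in Huh-7 HOXB to 0.113 (si-CENPU) and HOXC to 8.50 and 6.89. At a threshold of 2 TPM, 11 HOX genes passed in MHCC-97H si-NC, 2 in Huh-7 si-CENPU and 1 in Huh-7 si-NC. At 0.5 TPM 14 passed in Huh-7 si-CENPU and 13 in Huh-7 si-NC, and 3 reached 1 TPM in every Huh-7 si-NC library. Of single HOX genes under the alternatives, 907 values kept their side of the threshold, 9 gained the call, 13 lost it and 0 reversed a call, and 12 of the 907, none of them called, changed sign. Correlations of same-numbered si-CENPU and si-NC libraries ran from -0.0914 to 0.134, and those of differently numbered ones from -0.116 to 0.157. No pairing by replicate number was seen in these values, but they cannot show that the samples were unpaired. With the replicate block 12 HOX genes were called in si-NC libraries, HOXA5 (adjusted p = 0.00802 in limma) being added. MHCC-97H si-NC replicates 1 and 3 leaned opposite ways with GC content (rho -0.516 and 0.456 across genes, which are not independent).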
